A study of Oryza sativa Japonica Group with 4 samples.

Results

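The 8 genes described here code for basic leucine zipper (bZIP) transcription factors that act in the abscisic acid (ABA) response of rice: OsbZIP46, OsbZIP23, OsbZIP66 (also called TRAB1), OsbZIP72, OsbZIP12, OsbZIP10 (OsABI5), OsbZIP42 and OsbZIP62. They were chosen by locus identifier from 28491 genes listed in at least 1 library. No cut on their measured values was used, but earlier results of these data were known when they were chosen. All 8 were listed in at least 1 library, and 6 had enough reads for a test. Messenger RNA was sequenced from the above-ground parts of unstressed rice seedlings (Oryza sativa, japonica) at the 4-leaf stage, raised in soil under natural light. One group, with 2 libraries, was the wild-type cultivar DongJin, and the other, with 2 libraries, was a modd mutant from the POSTECH mutant collection, titled modd2. The labels name no agent and no second mutant line. They also leave out whether replicate libraries were made from different plants, and p-values here therefore reflect the variation among these 4 libraries, part or all of which may be technical.

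ABA is the hormone through which plants answer water shortage. When it binds its receptors (the PYL family), clade A protein phosphatases are held back, SnRK2 kinases (SAPK in rice) become active, and these phosphorylate bZIP factors that bind ABA-responsive elements in promoters and switch on protective genes. OsbZIP46 is one of these factors and a positive regulator of drought tolerance, and the study's title names MODD as a protein that inactivates it and promotes its degradation. Such control acts on the protein, which these libraries did not measure; they give transcript levels only.

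The libraries held between 5334814 and 5393972 expected reads, estimated reads per gene. Levels are in FPKM, which scales reads to transcript length and library size. MODD (LOC_Os03g11550), the gene named by the mutant, was measured at 36.9 FPKM in replicate 1 and 46.6 FPKM in replicate 2 of the mutant-labelled group, and at 20.9 and 21.3 FPKM in DongJin. It was thus higher, not lower, in the libraries labelled modd mutant, hereafter called mutant-labelled (log2 fold change 0.93 ± 0.146, SE, n = 2 per group, edgeR adjusted p = 0.0272), so every direction is stated for the libraries as labelled. The labels do not give the kind or site of the mutation. The 5 leaf markers, genes of the light-harvesting complexes, photoprotection and Rubisco, summed to between 7308 and 10069 FPKM. Of 6 root markers, 3 were not listed in any library, and so counted as 0 (OsYSL15, LSI2 and OsNRT2.1), and the 6 summed to between 12.2 and 19.4 FPKM.

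None of the 6 tested bZIP genes passed the test between the genotypes, at an edgeR adjusted p under 0.05 over 19365 genes, where 0.837% of all tested genes did (0.501% higher and 0.336% lower in the mutant-labelled libraries). DESeq2 and limma on log2(FPKM + 1) also called 0 of the 6. Without adjustment, 1 of the 6 (OsbZIP72) had an edgeR p under 0.05, as did 16.8% of all tested genes. The transcript of OsbZIP46 had nearly the same mean level in both groups. Log2 fold changes of the 6 genes ran from -0.44 to 0.10, with 5 below 0, 1 above 0 and a median of -0.10, against a median of 0.00 and quartiles of -0.19 and 0.21 over all tested genes. With 2 libraries against 2, an exact two-sided permutation test of a single gene cannot give a p below 0.333.

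**Figure D1:**
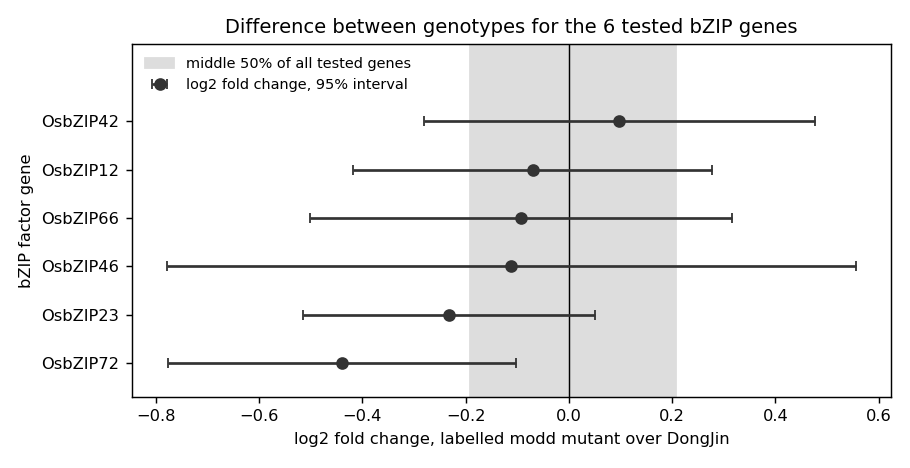
Points give the log2 fold change (mutant-labelled libraries over DongJin, x axis) of each tested bZIP gene (y axis), with bars for the 95% interval of edgeR's quasi-likelihood fit on 2 libraries per group; the grey band spans the quartiles of all 19365 tested genes, -0.19 to 0.21. Intervals of 5 genes cross 0, and that of OsbZIP72 ends at -0.10 before adjustment for the number of genes tested.

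OsbZIP46 (LOC_Os06g10880, chromosome 6 by its identifier) was at 5.24 and 7.23 FPKM in the mutant-labelled libraries and at 8.05 and 4.52 FPKM in the wild type. Both wild-type libraries lay outside the mutant pair, one above it and one below it, so the groups overlapped completely. The group means were 6.24 ± 1.41 and 6.29 ± 2.50 FPKM (SD, n = 2), and the log2 fold change was -0.11 ± 0.298 (SE, edgeR adjusted p = 0.885). Its 95% interval, not adjusted for the number of genes tested, ran from a 0.583-fold to a 1.47-fold level in the mutant-labelled libraries. Differences within that span are compatible with these values, and the span is not a limit of detection.

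The reads behind these levels were few. OsbZIP46 had 45 and 61 reads in the mutant-labelled libraries and 73 and 39 reads in the wild type, 218 in all. Scaled to the effective library sizes, wild-type replicate 1 had 1.81 times the level of replicate 2, with a 95% counting interval (exact binomial) from 1.21 to 2.74. The DongJin libraries thus differed by more than counting error for this gene. They also did for OsbZIP23, the other way round, with a ratio of 0.817 and an interval from 0.707 to 0.942. For OsbZIP46, the ratio of mutant-labelled replicate 2 to replicate 1 was 1.38, with an interval from 0.921 to 2.07, which includes 1. The fitted biological coefficient of variation (the spread between libraries beyond counting) was 17.8% for OsbZIP46, the highest of the 6 tested bZIP genes, which otherwise ran from 9.34 to 10.6%.

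Leaving out single libraries moved OsbZIP46 in both directions. Its log2 fold change was 0.38 without wild-type replicate 1 (edgeR adjusted p = 0.479) and -0.47 without wild-type replicate 2 (edgeR adjusted p = 0.504). It was 0.10 without mutant-labelled replicate 1 (edgeR adjusted p = 0.966) and -0.36 without replicate 2 (edgeR adjusted p = 0.753). With limma, on the mean of log2(FPKM + 1), the difference was 0.02, while the plain mean FPKM was slightly lower in the mutant-labelled libraries.

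**Figure D2:**
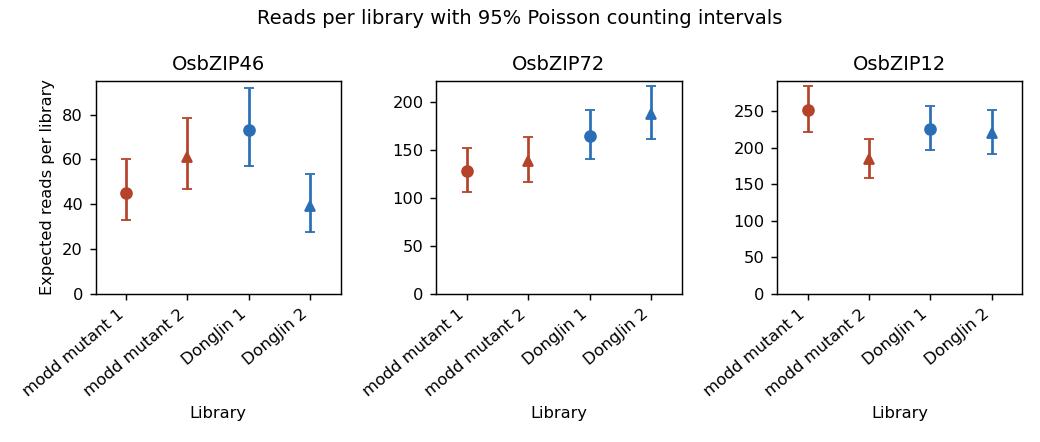
Expected reads (y axis, from 0) of OsbZIP46, OsbZIP72 and OsbZIP12 in each of the 4 libraries (x axis), with 95% Poisson intervals that cover counting error only. OsbZIP46 differed most within the wild type (73 and 39 reads), OsbZIP12 within the mutant pair (252 and 184 reads), while the OsbZIP72 counts of the mutant-labelled libraries (128 and 139) lay below both wild-type counts (165 and 188).

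OsbZIP72 (LOC_Os09g28310, chromosome 9), an ABA-responsive element binding factor and positive regulator of the ABA response, had the largest difference among the 6. It was at 12.8 and 13.9 FPKM in the mutant-labelled libraries and at 16.5 and 18.7 FPKM in the wild type, from 128, 139, 165 and 188 reads in that order. The mutant pair lay below both wild-type libraries. The log2 fold change was -0.44 ± 0.151 (SE, n = 2 per group, edgeR unadjusted p = 0.0157, adjusted p = 0.188), a level 0.737-fold that of the wild type. Among all tested genes, 18.8% had a larger absolute log2 fold change. Without wild-type replicate 1 the gene was called lower, at -0.56 (edgeR adjusted p = 0.0256), in a fit that called 12.4% of all tested genes. Without each of the other libraries its log2 fold change ran from -0.51 to -0.32 and it was not called.

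OsbZIP23 (LOC_Os02g52780, chromosome 2), a major activator of ABA and drought responses in rice and related to OsbZIP46, was the second with groups that did not overlap. It was measured at 33.7 and 31.5 FPKM in the mutant-labelled libraries and 35.1 and 40.6 FPKM in the wild type. The gap between the groups was narrow, from 33.7 to 35.1 FPKM, and the wild-type libraries differed from each other by more than that. The log2 fold change was -0.23 ± 0.127 (SE, n = 2 per group, edgeR adjusted p = 0.39), with a 95% interval from 0.70-fold to 1.04-fold. It was -0.38 without wild-type replicate 1 (edgeR adjusted p = 0.0525) and -0.08 without wild-type replicate 2 (edgeR adjusted p = 0.893). The same lack of overlap, in log2 CPM (reads scaled to library size only), was seen in 2 of the 6 tested bZIP genes, both lower in the mutant-labelled libraries, and in 50.3% of all tested genes (25.6% lower).

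For both OsbZIP72 and OsbZIP23, wild-type replicate 2 was the highest of the 4 libraries and wild-type replicate 1 the next. Summed leaf markers were also highest in wild-type replicate 2 (10069 FPKM), then in replicate 1 (8844 FPKM), with 7308 and 8614 FPKM in the mutant-labelled libraries. Summed root markers went the other way, at 12.2 and 15.8 FPKM in wild-type replicates 2 and 1 and at 19.4 and 17.2 FPKM in the mutant-labelled libraries. From mutant-labelled replicate 1 to replicate 2, the leaf sum rose. OsbZIP72 rose as well (12.8 and 13.9 FPKM), while OsbZIP23 fell (33.7 and 31.5 FPKM). Not every marker followed its sum. The leaf marker PSBS1 was lowest in wild-type replicate 1 (191 FPKM, against 202 and 206 in the mutant-labelled libraries). The root marker OsIRT1 was highest in wild-type replicate 2 (0.49 FPKM, from 4 reads). The other leaf markers were higher, and LSI1 and OsHKT2;1 lower, in both wild-type libraries. Groups that did not overlap in log2 CPM were seen in 50.3% of all tested genes (25.6% lower in the mutant-labelled libraries). All 5 leaf markers had log2 fold changes below 0 (median -0.36), where 49.4% of all tested genes did. Both tested root markers had values above 0 (0.22 and 0.78). None of them was called by edgeR, DESeq2 or limma. An unadjusted edgeR p under 0.05 was found for 2 of 5 leaf markers and 1 of 2 root markers, against 16.8% of all tested genes. The meristem marker OSH1 had 0 and 4 reads in the mutant-labelled libraries and 8 and 9 in the wild type, too few for a test. The panicle marker OsMADS14 ran from 11.0 to 12.8 FPKM. The part of tissue makeup in the bZIP values was not tested. In RNA from whole shoots, fewer cells of a type and less RNA per cell cannot be told apart.

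The other 3 tested members showed overlapping groups. OsbZIP66 (LOC_Os08g36790, chromosome 8), found as a partner of the seed regulator VP1 and phosphorylated upon ABA, was at 11.9 and 11.1 FPKM in the mutant-labelled libraries and 10.8 and 12.9 FPKM in the wild type. Here again the wild-type libraries enclosed the mutant pair (log2 fold change -0.09 ± 0.183, SE, n = 2 per group, edgeR adjusted p = 0.836). Without wild-type replicate 2 its log2 fold change was 0.07.

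OsbZIP12 (LOC_Os01g64730, chromosome 1), also known as OsABF1 and induced by stress and ABA, was at 29.1 and 20.9 FPKM in the mutant-labelled libraries and 26.0 and 25.1 FPKM in the wild type. It was the reverse case of OsbZIP46, with wild-type libraries close together and the mutant pair on either side of them. Mutant-labelled replicate 2 had 0.741 times the level of replicate 1, with a 95% counting interval from 0.609 to 0.90. The log2 fold change was -0.07 ± 0.156 (SE, n = 2 per group, edgeR adjusted p = 0.857), and it was -0.30 and 0.13 without mutant-labelled replicates 1 and 2.

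OsbZIP42 (LOC_Os05g41070, chromosome 5), a positive regulator of the ABA response, was the only tested member with a value above 0. It was at 10.8 and 9.95 FPKM in the mutant-labelled libraries and 10.2 and 8.68 FPKM in the wild type, with overlapping groups (log2 fold change 0.10 ± 0.17, SE, n = 2 per group, edgeR adjusted p = 0.813). Without wild-type replicates 1 and 2 in turn, its log2 fold change was 0.18 and 0.02. For 5 of the 6 tested genes, all but OsbZIP72, the difference between the groups was smaller than the wider of the gaps between libraries of a group, on the log2 scale. The share of all tested genes for which this held was not computed, so this count cannot be called usual or unusual.

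The remaining 2 genes fell under the count minimum and have no test. OsbZIP62 (LOC_Os07g48660, chromosome 7), linked to drought and oxidative stress tolerance, had 3 and 3 reads in the mutant-labelled libraries and 1 and 2 reads in the wild type, or 0.45, 0.45, 0.15 and 0.30 FPKM. Summed over each group, the ratio was 1.95 with a 95% counting interval from 0.416 to 12.05, which includes 1. OsbZIP10 (LOC_Os01g64000, chromosome 1), the rice relative of ABI5, which in Arabidopsis acts mainly in seeds and young seedlings, was listed only in mutant-labelled replicate 1, with 3 reads (0.40 FPKM). In the other 3 libraries it was not listed. The floor set for a count of 0 was 3 reads, or 0.556 to 0.561 CPM before TMM scaling, and the upper end of the 95% Poisson interval is 3.69 reads.

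**Figure D3:**
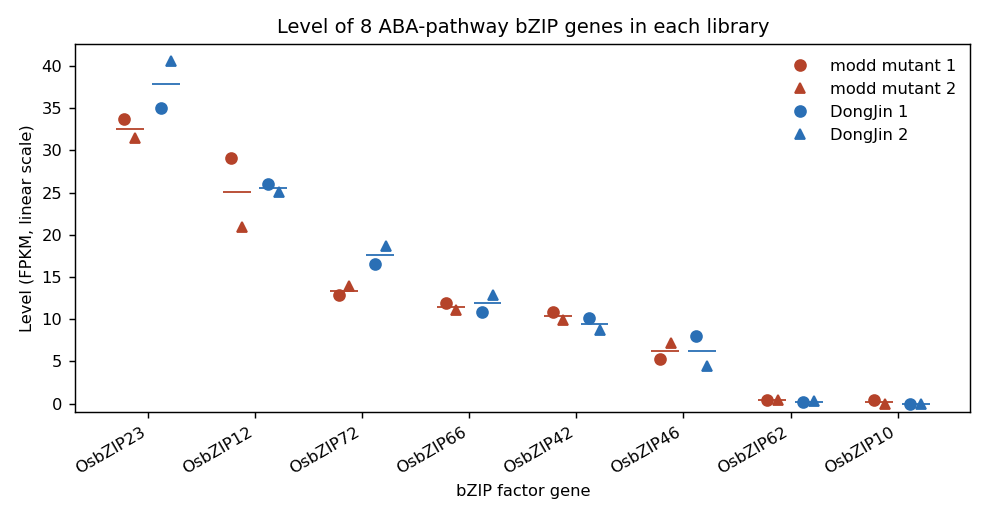
Level in FPKM (y axis, linear) of each of the 8 bZIP genes (x axis, ordered by mean level), with 1 point per library (circles replicate 1, triangles replicate 2) and a line at each group mean of 2 libraries. Levels ran from 31.5 to 40.6 FPKM for OsbZIP23 down to 0.45 FPKM or less for OsbZIP62 and OsbZIP10.

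Levels spanned a far wider range across the 8 genes than between the genotypes. In level per length (FPKM), the mean over 4 libraries was 35.2 for OsbZIP23, 25.3 for OsbZIP12, 15.5 for OsbZIP72, 11.7 for OsbZIP66, 9.91 for OsbZIP42 and 6.26 for OsbZIP46, then 0.338 for OsbZIP62 and 0.10 for OsbZIP10. This order was the same in all 4 libraries. The 4-library ranges of OsbZIP72 and OsbZIP66 met (12.8 FPKM at the lowest against 12.9 at the highest), as did those of OsbZIP62 and OsbZIP10. These neighbours were thus not separate by range over all libraries. Within each library OsbZIP72 was above OsbZIP66, with a ratio of 4-library means of 1.33. OsbZIP66 and OsbZIP42 were only just apart, at 10.84 FPKM against 10.81. The other neighbours in the order had ranges that did not meet. OsbZIP46, the factor named with MODD in the title, was thus the lowest of the 6 well-detected members, at the 53.9th percentile of mean FPKM among all listed genes, where OsbZIP23 stood at the 87.3rd.

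OsbZIP23 was 6.43 and 4.35 times as abundant per length as OsbZIP46 in the mutant-labelled libraries, and 4.36 and 8.98 times in the wild type. OsbZIP46 made up 5.02 and 7.61% of the summed FPKM of the 8 genes in the mutant-labelled libraries and 7.54 and 4.08% in the wild type. OsbZIP23, OsbZIP12 and OsbZIP72 together made up from 69.8 to 76.1% in each library. The sum itself was 104 and 94.98 FPKM in the mutant-labelled libraries and 107 and 111 FPKM in the wild type. Group means of the sum were 99.7 ± 6.70 and 109 ± 2.74 FPKM (SD, n = 2), a ratio of 0.917, given as a description without a test.

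**Figure D4:**
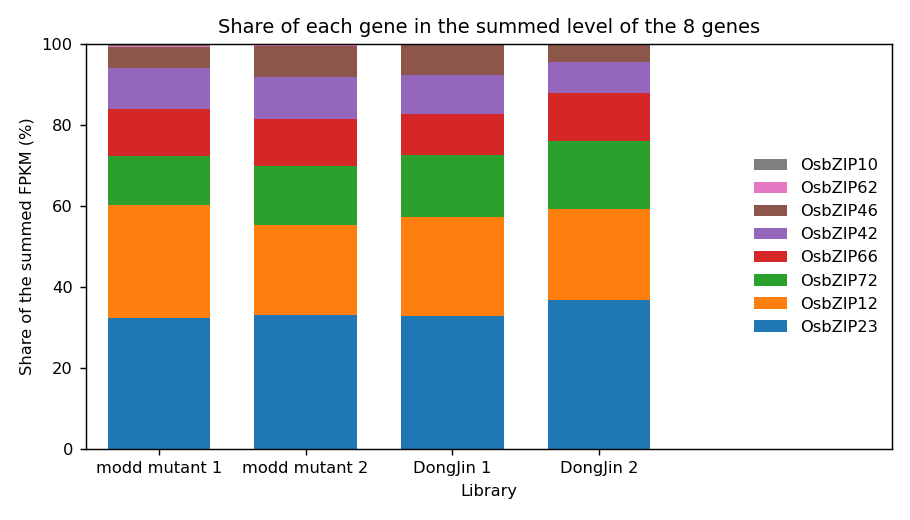
Stacked bars show the share (%) of each bZIP gene in the summed FPKM of the 8 genes (y axis) in each library (x axis). OsbZIP23 held 32.3 to 36.7% in every library, and OsbZIP46 between 4.08 and 7.61%.

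All expected counts of the 8 genes were whole numbers, so no splitting of reads with similar genes shows in them, although the bZIP family is large. Of the 8 genes, 4 had several annotated transcripts, and the deposited transcript length, a mean over these in each library, then varies with the estimated mix of transcripts. For OsbZIP46, with 3 transcripts, it was 1610 and 1577 bases in the mutant-labelled libraries and 1696 and 1601 bases in the wild type. The groups overlapped, and wild-type replicate 1 had the longest mean. This range was 7.33% of the mean, and 9.63% of the tested genes with several transcripts had a wider one. For OsbZIP23, with 2 transcripts, lengths were 1952 and 1946 bases in the mutant-labelled libraries and 1899 and 1923 bases in the wild type. These did not overlap, as was the case for 29.2% of the 5844 tested genes with several transcripts. OsbZIP12 varied by 1.07% of its mean, with overlapping groups. The length column has no error estimate, so these values are descriptions.

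Around the factors, the pathway's other genes were counted in the same fit. OsTPR3, a TOPLESS-type corepressor, and HDA702, a histone deacetylase, both described as partners of MODD, had log2 fold changes of 0.01 and -0.05 (edgeR adjusted p = 0.973 and 0.834). Upstream, 2 of 5 tested ABA receptor genes out of 13 were called higher in the mutant-labelled libraries and none lower, where 0.837% of all tested genes were called. These were LOC_Os03g18600 (OsPYL6), at 197 and 195 FPKM against 84.8 and 60.2 in DongJin (log2 difference 1.39 ± 0.138, SE, edgeR adjusted p = 0.00961), and LOC_Os05g39580 (OsPYL5), at 8.53 and 7.48 FPKM against 2.80 and 1.76 (1.77 ± 0.274, SE, edgeR adjusted p = 0.0272). Limma on log2(FPKM + 1), which called 0 genes in all with 3093 unadjusted p-values under 0.05, called neither these receptor genes nor MODD. Of 10 clade A phosphatase genes, 7 were tested and edgeR called none. All 7 had log2 fold changes below 0 (median -0.56), where 49.4% of all tested genes did. Unadjusted, 4 of these 7 had an edgeR p under 0.05, against 16.8% of all tested genes. All 10 SnRK2 kinase genes were tested, none was called, and the median was -0.03. Of these 10, 4 had an unadjusted edgeR p under 0.05, against the same 16.8%.

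Downstream, 11 genes known for induction by ABA or drought (dehydrins, LEA proteins, OsASR1 and SALT) were considered, of which 4 had enough reads for a test. EdgeR called none of these 4, the median log2 fold change was 0.05, and 1 had an unadjusted p under 0.05, against 16.8% of all tested genes. The dehydrin genes RAB16A to RAB16D stood at 2.66 FPKM or less in all 4 libraries, in plants labelled as unstressed. Other genes of this list were far higher. LIP9, also a dehydrin gene, was at 159 and 168 FPKM in the mutant-labelled libraries and at 137 and 120 FPKM in DongJin (log2 fold change 0.31, edgeR adjusted p = 0.186). OsASR1 ran from 1010 to 1168 FPKM and SALT from 32.1 to 40.3 FPKM. Among 12 other rice bZIP genes, such as LIP19, known from the cold response, 9 were tested and none called by edgeR. Their log2 fold changes ran from -0.51 to 0.33, with a median of -0.01. Unadjusted, 2 of the 9 had an edgeR p under 0.05, against 16.8% of all tested genes. DESeq2 and limma on log2(FPKM + 1) also called none of the phosphatase, kinase, ABA-response and other bZIP genes. The span of the 6 ABA-pathway bZIP genes, -0.44 to 0.10, lay within that of these 9.

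Profiles over the 4 libraries were compared with that of OsbZIP46 for 38 tested genes of these lists. The 38 included the 9 tested other bZIP genes but not the other ABA-pathway bZIP genes described here. Among the 38, the 3 nearest were OsbZIP01, RITA1 and OsFD1, all from those 9. Likeness was the root-mean-square difference of log2 CPM, each gene centred on its own mean, and it was 0.21, 0.23 and 0.31 on the log2 scale. OsbZIP01 was at 5.37 and 6.11 FPKM in the mutant-labelled libraries and 5.87 and 4.30 in the wild type, from 17 to 24 reads per library. Of all 19364 other tested genes, 4395 were at least as near as the third of these, so 4 libraries do not single out a partner.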

How the data were processed

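Tables for 4 libraries, 2 per group, were grouped by their titles. RSEM, Bowtie and BWA are listed in the submitters' processing notes; their roles and versions, the build and the annotation were not given in the sources used. Rows hold, per the file headers, gene and transcript identifiers, length, expected count and FPKM. The authors deposited expected counts as estimated reads per gene, and FPKM values that scale them by transcript length and library. Tables list only genes above 0, so a missing row was counted as 0.

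Rounded expected counts entered edgeR 4.0.16 under R 4.3.3: filterByExpr (minimum count 10, minimum total 15), TMM factors, robust quasi-likelihood test, genotype as the only term, Benjamini-Hochberg adjustment over 19365 genes, threshold 0.05. The SE is the absolute log2 fold change divided by the square root of F; intervals are at a 95% level. Poisson, binomial and floor (3 reads) limits cover counting error only. Depth was 5334814 to 5393972 reads. Libraries of a group differed beyond sampling noise (chi-square per degree of freedom 2.54 and 4.50), so all were kept. The fit was also run on counts simulated from its own model with large changes. That run does not show how it performs on these libraries or on small differences. DESeq2 1.42.0 and limma 3.58.1 were alternatives.

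All 8 bZIP genes and MODD are named, with other list genes where called, singled out, marker genes, MODD partners or nearest in profile to OsbZIP46. LIP19, LIP9, OsASR1 and SALT were singled out, and the RAB16 genes grouped, after their values were seen. Members and lists were chosen with earlier results of these data known. Symbols of 2 of the 8 (OsbZIP23 and TRAB1) were found in the reference gene table, on the chromosome of the locus identifier, and no identifier was. Coordinates are not given, as the build is not known.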

Additional observations from a re-analysis of the deposited data

How the results depend on the processing

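Over 13 alternatives, the 6 log2 fold changes gave 78 values, of which 70 kept their direction and stayed uncalled, 7 changed sign and 1 became a call. OsbZIP46 changed sign to 0.0199 with limma on log2(FPKM + 1), with or without the filter, to 0.028 with limma on log2(FPKM + 0.1), to 0.38 without wild-type replicate 1 and to 0.10 without replicate 1 labelled modd mutant (lowest and highest with single libraries left out, -0.47 and 0.38). OsbZIP66 ran from -0.25 to 0.0714, OsbZIP12 from -0.30 to 0.13, OsbZIP23 from -0.38 to -0.08, OsbZIP42 from 0.02 to 0.18 and OsbZIP72 from -0.56 to -0.32 with single libraries left out. The number of bZIP genes called was 0 to 1 with single libraries left out, the 1 being OsbZIP72 without wild-type replicate 1, and 0 in every other setting, where the lowest adjusted p was 0.136. Calls over all genes, 162 in all, were 335 with DESeq2, 764 without the count filter, 102 with upper-quartile factors, 0 with limma on log2(FPKM + 1), with or without the filter, and 0 on log2(FPKM + 0.1), where 3093, 3309 and 3062 genes had an unadjusted p under 0.05. They were 144 to 2483 with single libraries left out (2483 without wild-type replicate 1, 457 without wild-type replicate 2, 591 without replicate 2 labelled modd mutant). With replicate number as a block they were 870, with 0 bZIP genes among them. Same-numbered libraries did not deviate together when taken over all tested genes (r = 0.01 across 19365 genes, which are not independent). A value over all genes cannot exclude a shared effect on some of them, and the labels do not say whether the number pairs libraries. The calls of MODD, OsPYL6 and OsPYL5 were lost in the 3 limma fits on FPKM values and in no other setting. The cause of these shifts was not tested. The log2 ratio of the summed FPKM, -0.13, was -0.17 after TMM scaling and -0.20 to -0.06 with single libraries left out. Depth leaves OsbZIP62 (9 reads in all) and OsbZIP10 (3 reads) untested, and OsbZIP46 had 39 to 73 reads per library.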
